A study of Mus musculus with 32 samples.

Results

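The 10 genes described here encode the core and naive pluripotency factors Pou5f1, Nanog, Sox2, Esrrb, Tfcp2l1, Zfp42, Nr0b1, Prdm14, Tbx3 and Foxd3. They were chosen by name, with Ensembl identifiers named from GENCODE M21, and are 10 of the 55401 genes listed in each of 5 deposited RNA-seq tables. No measured value entered the choice of names, although earlier results of these data were known. All 10 were found in all tables.

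The study sequenced RNA from mouse cells on the way to, and after, chemical reprogramming into induced pluripotent stem cells (iPSCs), and asked how an agonist of the nuclear receptor RXRα, CD3254 (CD), acts on that process. There are 32 libraries in 16 groups of 2. OG2X129 embryonic fibroblasts in reprogramming received CD or its DMSO vehicle, overexpressed Rxra (Rxra OE) or carried its control (CTR, labelled WT OE), or carried a knockdown of Exosc3, a subunit of the RNA exosome (shE3), or its control (shCTR, labelled WT shRNA). All reprogramming cultures shared a medium with VPA, CHIR99021, 616452, Parnate, Forskolin, AM580, EPZ004777 and vitamin C, so the controls were exposed to these small molecules too. Actinomycin D, which blocks transcription, was given for 0, 4 and 8 h to cultures with CD or DMSO in another table. The last table holds iPSCs obtained with CD (CD iPSC), iPSCs obtained with DMSO (DMSO iPSC), R1 cells, a line of mouse embryonic stem cells (ESCs), and mouse embryonic fibroblasts (MEF). The sample titles of the DMSO iPSCs read DMSP, and their genotype field names DMSO. The MEF libraries carry the genotype WT shRNA and the treatment field of the reprogramming cultures. Passage, clone, vector, culture day and whether the 2 libraries of a group are separate cultures were not given in the sources used here, so p-values measure only the spread between libraries, which may be technical.

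Pluripotency in mouse ESCs rests on a network of transcription factors that bind their own and each other's control regions. Pou5f1 (Oct4), Sox2 and Nanog form its core, and the naive state, the state of cultured mouse ESCs, is further marked and maintained by Esrrb, Tfcp2l1, Zfp42 (Rex1), Nr0b1 (Dax1), Prdm14 and Tbx3. Foxd3 is needed for the epiblast and for neural crest, and several of the others also act elsewhere: Sox2 in neural progenitors, Tbx3 in limb, mammary gland and extraembryonic endoderm, and Zfp42 and Esrrb in trophoblast.

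On GRCm38 (mm10), with 1-based coordinates, the core genes lie at chr17:35506018-35510772 (Pou5f1, plus strand), chr6:122707489-122714633 (Nanog, plus) and chr3:34650405-34652461 (Sox2, plus). The genes of the naive factors lie at chr12:86361117-86521628 (Esrrb, plus), chr1:118627945-118685168 (Tfcp2l1, plus), chr8:43295063-43306980 (Zfp42, minus), chrX:86191764-86195947 (Nr0b1, plus), chr1:13113457-13127163 (Prdm14, minus) and chr5:119670669-119684724 (Tbx3, plus). Foxd3 lies at chr4:99656299-99658622 (plus). All 10 are annotated as protein coding. Sox2 sits inside the noncoding gene Sox2ot on the same strand, Pou5f1 overlaps the antisense gene Gm19553, and Tbx3 overlaps the antisense gene Tbx3os1, Foxd3 overlaps the miRNA gene Gm23366, and Tfcp2l1 spans the small noncoding genes Gm22094 and Gm23497 and the pseudogene Gm28882. Nanog has the processed pseudogenes Nanog-ps1 and Nanog-ps2 and Zfp42 has Zfp42-ps1. How the counting split reads among these copies and overlaps was not given in the sources used here, so values of these 7 genes carry that uncertainty.

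Upstream sequences were available from RefSeq (GRCm38.p6) for 8 of the 10 genes, and those of Prdm14 and Tbx3 are not shown. The 250 bases before the RefSeq start of 4 of them are printed: those of Pou5f1, Nanog and Sox2 because these genes are the core, and that of Zfp42 as a naive marker, at 0.264 of its DMSO iPSC mean in CD iPSCs. Capitals mark matches, on either strand, to TTTGCAT (bound by POU-type factors such as Pou5f1), ACAATG (Sox-type) and AGGTCA (the half-site of many nuclear receptors).

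Pou5f1, chr17:35505782-35506031, plus strand: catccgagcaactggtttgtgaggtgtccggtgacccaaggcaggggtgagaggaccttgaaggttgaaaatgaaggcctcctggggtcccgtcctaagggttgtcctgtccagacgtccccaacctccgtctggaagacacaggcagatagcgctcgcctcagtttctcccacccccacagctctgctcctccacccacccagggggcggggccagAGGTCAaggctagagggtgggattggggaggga

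Nanog, chr6:122707239-122707488, plus strand: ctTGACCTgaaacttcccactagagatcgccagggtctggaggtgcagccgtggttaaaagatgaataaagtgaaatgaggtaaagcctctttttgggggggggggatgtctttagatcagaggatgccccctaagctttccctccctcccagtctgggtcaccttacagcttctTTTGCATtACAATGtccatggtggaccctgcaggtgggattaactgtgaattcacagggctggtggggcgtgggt

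Sox2, chr3:34649745-34649994, plus strand: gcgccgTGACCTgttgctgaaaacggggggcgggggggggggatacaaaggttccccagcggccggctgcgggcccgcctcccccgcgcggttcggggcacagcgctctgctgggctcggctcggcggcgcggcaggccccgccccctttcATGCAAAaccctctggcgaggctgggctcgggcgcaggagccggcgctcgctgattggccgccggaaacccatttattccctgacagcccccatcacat

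Zfp42, chr8:43307010-43307259, minus strand: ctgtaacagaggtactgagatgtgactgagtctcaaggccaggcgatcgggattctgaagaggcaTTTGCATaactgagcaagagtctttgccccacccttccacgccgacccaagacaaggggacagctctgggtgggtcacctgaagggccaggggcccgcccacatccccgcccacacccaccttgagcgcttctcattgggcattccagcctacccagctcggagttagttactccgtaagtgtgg

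TTTGCAT was found in 3 of the 8 windows, those of Nanog, Sox2 and Zfp42, and in 4.07% of 27025 promoter windows of the same length. In the Nanog window it is followed, after a single base, by ACAATG, which was in 1 of 8 windows and in 10.9% of all. AGGTCA was found in 4 of 8 windows (Pou5f1, Nanog, Sox2 and Nr0b1), against 13.8% of all. CAAGGTCA, a longer form that contains AGGTCA, was in 0 of 8 windows and in 1.3% of all. GGGNGTGG, of the kind bound by Klf factors and left in lower case above, was in 5 of 8 (Pou5f1, Nanog, Zfp42, Tfcp2l1 and Foxd3), against 15.9% of all. These matches describe the letters of the windows only.

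In the iPSC table, 9 of the 10 genes were lower in CD iPSCs than in DMSO iPSCs, and Pou5f1 was the exception. The lower genes ran from Foxd3, at 0.0503 of its DMSO iPSC mean, to Sox2, at 0.752 of it. Relative to R1 ESCs the same 9 names were lower in CD iPSCs. Values are TPM as the authors deposited them, a level corrected for gene length. Log2 changes are on the log2(TPM + 1) scale with their SE, which understates changes of low genes. Adjusted p-values come from limma with Benjamini-Hochberg adjustment over all genes tested (2-sided, threshold 0.05, 2 libraries per group), after a filter that kept genes with 1 or more in at least 2 libraries of the table. In this comparison 38.5% of 17414 tested genes were called, and 18.5% were called lower. The iPSC libraries carry the cell type field of the starting fibroblasts, but their summed levels of 20 fibroblast markers were 509 to 516 TPM in CD iPSCs and 959 to 976 TPM in DMSO iPSCs, against 459 to 463 TPM in R1 and 28928 to 29736 TPM in MEFs.

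Pou5f1, the POU-domain factor without which the inner cell mass does not become pluripotent, had 1532 and 1138 TPM in CD iPSCs, against 1275 and 1446 TPM in DMSO iPSCs. R1 had 1087 and 1199 TPM. The ranges of all 3 stem cell groups lie close together, and those of CD iPSCs overlap both others. The difference between CD and DMSO iPSCs was -0.04 ± 0.15 (SE, adjusted p = 0.873 by limma), and that between CD iPSCs and R1 was 0.21 ± 0.15 (adjusted p = 0.367). Without CD iPSC replicate 1 or 2, or without DMSO iPSC replicate 2, one or the other of these small differences was 0 or changed sign.

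Nanog, the homeodomain factor that stabilises self-renewal, had 350 and 359 TPM in CD iPSCs, against 618 and 578 TPM in DMSO iPSCs. R1 had 882 and 902 TPM, so the 3 groups are in steps that do not overlap, with CD iPSCs lowest. CD iPSCs averaged 354 ± 6.46 TPM and DMSO iPSCs 598 ± 28.0 TPM (SD, n = 2 each), a log2 change of -0.75 ± 0.13 (adjusted p = 0.00434). With a pseudocount of 0.1, where the MEF libraries at 0 and 0.288 TPM enter the shared spread, the change was again -0.75 but did not pass (adjusted p = 0.325). In a fit without the MEF libraries, chosen after seeing the data, its adjusted p was 0.00518.

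Sox2, the HMG-box partner of Pou5f1, had 203 and 167 TPM in CD iPSCs, against 241 and 251 TPM in DMSO iPSCs. R1 had 288 and 320 TPM, again without overlap. The change between CD and DMSO iPSCs was -0.42 ± 0.12 (adjusted p = 0.0332), but it did not pass without the MEF libraries (adjusted p = 0.0584) nor in any of the fits without CD iPSC replicate 2 (-0.27), DMSO iPSC replicate 1 (-0.45) or DMSO iPSC replicate 2 (-0.38).

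Among the naive factors, Zfp42, a zinc-finger protein long used as a marker of undifferentiated mouse ESCs, had 88.9 and 80.8 TPM in CD iPSCs, against 315 and 328 TPM in DMSO iPSCs. R1 had 488 and 482 TPM. CD iPSCs thus had the lowest values of the 3 stem cell groups, with 84.8 ± 5.73 TPM against 321 ± 9.0 TPM in DMSO iPSCs (SD, n = 2 each), a log2 change of -1.91 ± 0.09 (adjusted p = 1.25e-04 by limma).

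Nr0b1, an orphan nuclear receptor that lacks a usual DNA-binding domain and binds partner factors, had 23.6 and 25.8 TPM in CD iPSCs, against 105 and 110 TPM in DMSO iPSCs. R1, at 82.5 and 79.0 TPM, lay below DMSO iPSCs and above CD iPSCs. The change between CD and DMSO iPSCs was -2.08 ± 0.11 (adjusted p = 1.4e-04). Of the 9 genes only Foxd3 had a larger change.

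Tbx3, a T-box factor of self-renewal and of extraembryonic endoderm, had 29.1 and 22.6 TPM in CD iPSCs, against 70.2 and 74.5 TPM in DMSO iPSCs and 56.1 and 64.9 TPM in R1 (change between iPSC groups -1.46 ± 0.15, adjusted p = 7.28e-04). It had the highest MEF level of the 10 genes, at 9.61 and 8.39 TPM. Prdm14, a PR-domain factor that represses genes of the primed state and acts in germ cells, had 10.9 and 11.8 TPM in CD iPSCs, against 23.9 and 23.5 TPM in DMSO iPSCs and 30.2 and 32.1 TPM in R1 (-1.0 ± 0.14, adjusted p = 0.00188). Neither gene's CD iPSC libraries overlapped those of the other stem cell groups.

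Esrrb and Tfcp2l1 had smaller changes. Esrrb, an orphan nuclear receptor of the oestrogen-related family, had 149 and 136 TPM in CD iPSCs, against 184 and 230 TPM in DMSO iPSCs and 240 and 316 TPM in R1. Its change between iPSC groups of -0.53 ± 0.16 (adjusted p = 0.0385) passed narrowly. It did not pass without a filter (adjusted p = 0.0698), without the MEF libraries (adjusted p = 0.084) or when any 1 of the 4 iPSC libraries was left out (-0.69 to -0.37). Tfcp2l1, a CP2-family factor downstream of LIF signalling, had 44.0 and 50.7 TPM in CD iPSCs, against 66.3 and 68.4 TPM in DMSO iPSCs and 80.6 and 76.2 TPM in R1. Its change was -0.50 ± 0.12 (adjusted p = 0.0147), and it did not pass without DMSO iPSC replicate 1 (-0.52) or DMSO iPSC replicate 2 (-0.48).

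Foxd3, the forkhead factor, showed the widest separation. It had 1.11 and 1.63 TPM in CD iPSCs, against 27.1 and 27.4 TPM in DMSO iPSCs. R1 had 13.8 and 12.4 TPM and MEFs 2.42 and 1.28 TPM, so the CD iPSC values overlap those of the fibroblasts and of no stem cell group. The mean was 1.37 ± 0.368 TPM in CD iPSCs and 27.3 ± 0.187 TPM in DMSO iPSCs (SD, n = 2 each), a log2 change of -3.58 ± 0.23 (adjusted p = 1.78e-04). Of 10 neural crest markers, 8 were tested, 0 were higher and 2 lower in CD iPSCs, with summed levels of 5.63 to 6.44 TPM in CD iPSCs, 12.52 to 13.9 TPM in DMSO iPSCs, 10.38 to 12.6 TPM in R1 and 111 to 114 TPM in MEFs, and Tfap2b listed at 0 in both iPSC groups. Their part in the Foxd3 difference was not tested.

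**Figure D1:**
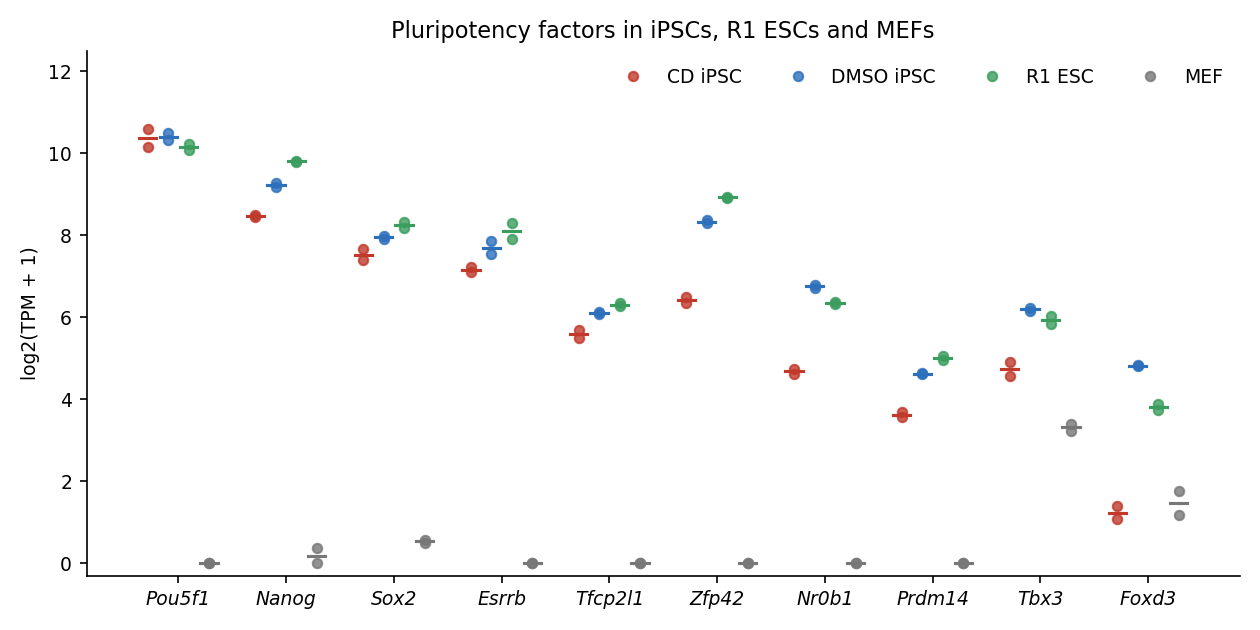
Levels of the 10 genes as log2(TPM + 1) in each library (points) with the group mean (bars), for CD iPSCs, DMSO iPSCs, R1 ESCs and MEFs. Pou5f1 lies between 1087 and 1532 TPM across the stem cell groups, Zfp42, Nr0b1, Tbx3 and Foxd3 are set apart in CD iPSCs, and Foxd3 in CD iPSCs lies with the MEFs.

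Against R1 ESCs, the 9 genes other than Pou5f1 were called lower in CD iPSCs, where 16.3% of all tested genes were called lower. Foxd3 changed by -2.58 ± 0.23 (adjusted p = 9.51e-04), Zfp42 by -2.50 ± 0.09 (adjusted p = 9.75e-05) and Nr0b1 by -1.67 ± 0.11 (adjusted p = 4.44e-04). Prdm14 (-1.38), Nanog (-1.33), Tbx3 (-1.2), Esrrb (-0.95), Sox2 (-0.72) and Tfcp2l1 (-0.72) followed, with adjusted p of 0.00119 to 0.0081 by limma. Nanog did not pass with a pseudocount of 0.1 (adjusted p = 0.136), Tfcp2l1 not without R1 replicate 1 (-0.68), and Sox2 (-0.65) and Esrrb (-0.75) not without R1 replicate 2. This comparison and the previous one share the CD iPSC libraries.

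Between DMSO iPSCs and R1 the differences went both ways. Nr0b1 was higher in DMSO iPSCs (0.41 ± 0.11, adjusted p = 0.0419), as was Foxd3 (1.01 ± 0.23, adjusted p = 0.025), while Nanog (-0.58 ± 0.13, adjusted p = 0.0229) and Zfp42 (-0.59 ± 0.09, adjusted p = 0.0079) were lower by limma. These are 4 of 10 genes, against 21.1% of all tested genes (6.32% of all tested were higher and 14.7% lower). None of the 4 passed when any 1 DMSO iPSC or R1 library was left out, Nanog did not pass relative to the median gene (-0.39, adjusted p = 0.0886), Foxd3 did not pass without a filter (1.01, adjusted p = 0.0502), and with a pseudocount of 0.1 only Zfp42 passed. Sox2, Esrrb, Tfcp2l1, Prdm14, Tbx3 and Pou5f1 did not pass, with changes from -0.42 to 0.26. The libraries of DMSO iPSCs and R1 did not overlap for any of the 10 genes. The share of all tested genes without overlap was not counted, so this carries no information of its own. The median gene was at -0.13. Rescaling by the median ratio took the share of upward calls over all genes to 56.3 instead of 30.0% here, and to 45.3 instead of 31.3% in CD iPSCs against R1.

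**Figure D2:**
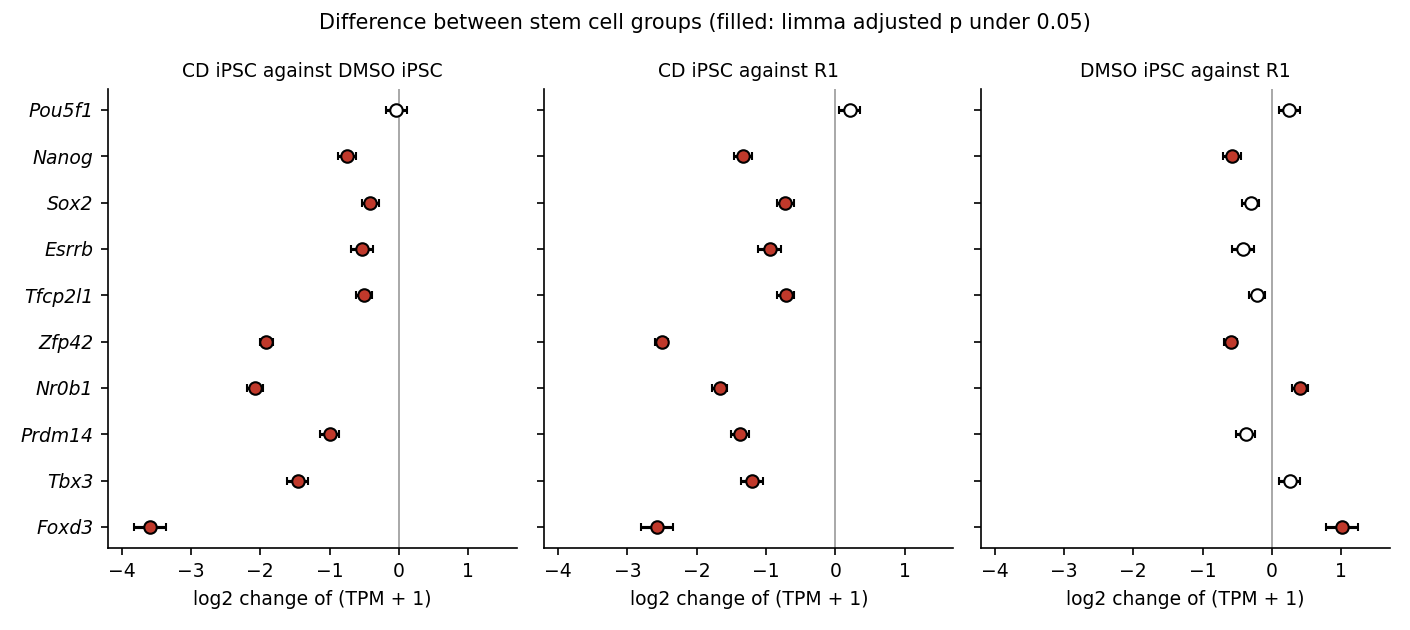
Log2 change of TPM + 1 with its SE (bars) for each gene, in CD iPSCs against DMSO iPSCs, CD iPSCs against R1 and DMSO iPSCs against R1. Filled points passed the limma threshold. The 9 genes other than Pou5f1 lie between -0.42 and -3.58 in the first panel and between -0.72 and -2.58 in the second, with Pou5f1 at -0.04 and 0.21, and in the third panel the points spread from -0.59 to 1.01.

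Levels can be set side by side across genes because TPM is per length. Pou5f1 led in all 3 stem cell groups and Nanog came second. In DMSO iPSCs and in R1 the third was Zfp42, with 321 and 485 TPM on average, whereas in CD iPSCs it came after Sox2 and Esrrb, with 84.8 TPM. Foxd3 was the lowest in CD iPSCs and R1, and Prdm14 the lowest in DMSO iPSCs. Tbx3 and Nr0b1 overlapped each other in CD iPSCs, and in R1 so did Sox2 with Esrrb and Nr0b1 with Tfcp2l1.

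The share of Pou5f1 in the summed TPM of the 10 genes was 63.0 and 57.1% in CD iPSCs, against 43.6 and 46.1% in DMSO iPSCs, and was 33.5 and 34.4% in R1. Nanog stood at 22.8 and 31.5% of the Pou5f1 level in CD iPSCs, against 48.5 and 40.0% in DMSO iPSCs, and at 81.1 and 75.3% in R1. Zfp42 stood at 5.80 and 7.10% of it in CD iPSCs, against 24.7 and 22.7% in DMSO iPSCs, and at 44.9 and 40.2% in R1. Such ratios within a library do not depend on its scaling. For all 9 genes the ratio in both CD iPSC libraries was below that in both DMSO iPSC and both R1 libraries. Between DMSO iPSCs and R1 the ratio was below in 6 of 9 genes and above in 2, Nr0b1 and Foxd3, and overlapped for Tbx3. All 9 ratios divide by the same Pou5f1 values, so they are not separate results. Pou5f1 had 1275 to 1446 TPM in DMSO iPSCs and 1087 to 1199 TPM in R1. The same ratios were not counted over all genes.

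Other genes of the pluripotency network were read from a list of 32, all of which were tested here. In CD iPSCs against DMSO iPSCs 3 were higher, 23 lower and 6 did not pass, with a median log2 change of -1.11, against 0.00 over all genes tested. The 3 with the largest change were L1td1, an RNA-binding protein of ESCs (42.8 TPM in CD iPSCs and 368 TPM in DMSO iPSCs, -3.08 ± 0.13), Gbx2, a homeobox factor downstream of LIF (3.79 TPM in CD iPSCs and 38.3 TPM in DMSO iPSCs, -3.04 ± 0.19), and Dppa2 (33.8 TPM in CD iPSCs and 162 TPM in DMSO iPSCs, -2.24 ± 0.15), with adjusted p of 1.08e-04 to 1.95e-04 by limma. Of 11 genes of the formative and primed states that follow the naive one, 9 were tested, 0 were higher and 2 lower, Dnmt3b (-0.85) and Zic2 (-0.51), with a median of -0.38. The sums of the 11 were 101 to 117 TPM in CD iPSCs, 181 to 186 TPM in DMSO iPSCs and 105 to 112 TPM in R1. Of 10 germ cell markers 3 were higher and 0 lower, led by Stra8, a gene of meiotic entry (181 TPM in CD iPSCs and 46.3 TPM in DMSO iPSCs, 1.94 ± 0.11, adjusted p = 1.54e-04). Germ cell sums were 445 to 464 TPM in CD iPSCs, 315 to 347 TPM in DMSO iPSCs and 541 to 558 TPM in R1. In CD iPSCs against R1, 3 of these markers were higher and 3 lower.

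Markers of other cells also differed between the iPSC groups. Of 20 fibroblast markers 0 were higher and 17 lower in CD iPSCs, among them S100a4 (-2.82), Prrx1 (-2.11) and Cdh11 (-1.74), and only Lum was listed at 0 in both CD iPSC libraries. Against R1, 1 of the 20 was higher and 4 lower in CD iPSCs, and 14 were higher and 0 lower in DMSO iPSCs. Of 16 neural and glial markers, 10 were tested, 0 were higher and 3 lower, including Tubb3 (-2.02) and Olig2 (-1.46), with summed levels of 40.6 to 41.3 TPM in CD iPSCs and 93.1 to 106 TPM in DMSO iPSCs. R1 had a neural and glial sum of 46.4 to 50.3 TPM. Against R1, 2 of the 10 tested were higher and 3 lower in CD iPSCs, and 4 were higher and 0 lower in DMSO iPSCs. None of the 10 tested had a mean of 0 in either iPSC group. Of 14 markers of extraembryonic endoderm (XEN-like) cells, 13 were tested, 2 were higher and 3 lower, and their sums overlapped (106 to 113 TPM in CD iPSCs and 106 to 110 TPM in DMSO iPSCs). Of 10 macrophage markers 0 were higher and 2 lower (57.2 to 59.3 TPM in CD iPSCs and 85.8 to 96.2 TPM in DMSO iPSCs, with Aif1 at 0 in both), and of 8 trophoblast markers 5 were tested, 1 was higher and 1 lower. R1 had a macrophage sum of 41.3 to 44.7 TPM. Against R1, 2 macrophage markers were higher and 0 lower in CD iPSCs, and 3 were higher and 0 lower in DMSO iPSCs. In bulk RNA, fewer cells of a type and less RNA per cell cannot be told apart, and the part of these markers in the results on the 10 genes was not tested.

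In MEFs, 6 of the 10 genes (Pou5f1, Esrrb, Tfcp2l1, Zfp42, Nr0b1 and Prdm14) were listed at 0 in both libraries. Nanog had 0 and 0.288 TPM and Sox2 0.491 and 0.412 TPM. Called higher than in MEFs were 9 genes in CD iPSCs, 10 in DMSO iPSCs and 10 in R1, where 33.3, 31.4 and 36.2% of all tested genes were called higher. The gene that did not pass was Foxd3 in CD iPSCs (-0.24 ± 0.23, adjusted p = 0.379). The 6 genes at 0, Nanog and Sox2 passed the filter only through the stem cell groups and had to differ from MEFs. The number of genes called higher than in MEFs thus carries no information of its own. Tbx3, the member with the highest MEF level, was 2.87 times its MEF mean in CD iPSCs (1.42 ± 0.15, adjusted p = 1.27e-04), 8.04 times in DMSO iPSCs (2.88 ± 0.15, adjusted p = 4.39e-06) and 6.72 times in R1 (2.62 ± 0.15, adjusted p = 5.87e-06 by limma).

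In the reprogramming cultures of the CD, Rxra OE and shE3 tables, Tbx3 ran from 17.4 to 82.9 TPM, Esrrb, Tfcp2l1 and Sox2 from 0.114 to 2.54 TPM, and the other 6 genes had at most 0.428 TPM. Within each of these tables, Tbx3 and Tfcp2l1 had higher values with CD and with Rxra OE and lower values with shE3, and the values of Sox2 were in the other order in all 3. Tfcp2l1 and Sox2 were below the filter in the Rxra OE table, and in the shE3 table none of the 3 changes passed when no filter was used. The tables were normalised separately, so levels are compared only inside a table. Genes that passed the filter only through the group in which they were high had to differ, so the number called among those that passed carries no information of its own. The targeted genes followed their labels: Rxra had 21.7 and 21.7 TPM with Rxra OE, against 8.70 and 9.57 TPM in CTR, and Exosc3 had 5.97 and 4.01 TPM with shE3, against 8.86 and 10.2 TPM in shCTR. Mitochondrial genes took 50.9 to 62.0% of all TPM in the tables of CD and of Rxra OE, and 11.8 to 15.5% in the shE3 table. The background shares were as follows. Called were 62.6% of 13006 genes with CD (43.1% higher and 19.5% lower), 82.6% of 13305 with Rxra OE (68.6% higher and 14.0% lower) and 17.2% of 15700 with shE3 (4.85% higher and 12.3% lower). The median gene moved by 0.18 with CD, by 0.62 with Rxra OE and by -0.04 with shE3 on the log2 scale. Rescaling libraries by their median ratio took the share of upward calls to 49.5 instead of 68.9% with CD, to 49.7 instead of 83.0% with Rxra OE and to 50.4 instead of 28.2% with shE3. Changes relative to the median gene are given below from that rescaling.

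Tbx3 had 31.3 and 32.4 TPM in CD cultures, against 20.7 and 21.5 TPM in DMSO cultures. With Rxra OE it had 59.7 and 60.8 TPM, against 17.4 and 19.8 TPM in CTR. With shE3 it had 46.4 and 45.0 TPM, against 70.6 and 82.9 TPM in shCTR. No pair of groups overlapped. The change with CD was 0.57 ± 0.06 (adjusted p = 4.6e-04) and 0.37 relative to the median gene. That with Rxra OE was 1.65 ± 0.10 (adjusted p = 1.98e-05) and 0.92 relative to the median gene. That with shE3 was -0.73 ± 0.11 (adjusted p = 9.26e-04 by limma) and -0.69 relative to the median gene. Without a filter the last of these did not pass (adjusted p = 0.0941).

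Tfcp2l1 had 1.00 and 1.01 TPM with CD, against 0.239 and 0.281 TPM with DMSO (0.67 ± 0.11, adjusted p = 0.00218, and 0.60 relative to the median gene). There it passed the filter only through the CD libraries, and in the fit without the filter its change was 0.67 ± 0.06 (adjusted p = 0.00919). It had 0.722 and 0.674 TPM with Rxra OE, against 0.145 and 0.114 TPM in CTR, which is below the filter, and in a fit without the filter its change was 0.59 ± 0.05 (adjusted p = 0.00336). Relative to the median gene, in a fit added after seeing the data, it was 0.40 (adjusted p = 0.00984). With shE3 it had 0.875 and 0.916 TPM, against 2.26 and 2.54 TPM in shCTR (-0.84 ± 0.20, adjusted p = 0.014, and -0.81 relative to the median gene). There it passed the filter only through the shCTR libraries, and the change did not pass without a filter (adjusted p = 0.121), without shCTR replicate 1 (-0.90) or without shCTR replicate 2 (-0.78). The groups of each pair did not overlap.

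Esrrb had 1.62 and 1.87 TPM with CD, against 0.558 and 0.626 TPM with DMSO (0.78 ± 0.11, adjusted p = 0.00114, and 0.68 relative to the median gene). It passed the filter there only through the CD libraries, and without the filter the change was 0.78 again (adjusted p = 0.0148). It had 0.930 and 0.879 TPM with Rxra OE, against 0.383 and 0.241 TPM in CTR, below the filter (0.54 ± 0.08 without it, adjusted p = 0.0121). Relative to the median gene the Rxra OE change of Esrrb did not pass (0.27, adjusted p = 0.128). With shE3 it had 1.26 and 0.734 TPM, against 1.73 and 1.30 TPM in shCTR, a difference that did not pass (-0.34 ± 0.23, adjusted p = 0.334, and -0.32 relative to the median gene).

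Sox2 had 0.579 and 0.637 TPM with CD, against 1.34 and 1.2 TPM with DMSO (-0.50 ± 0.10, adjusted p = 0.00676, and -0.60 relative to the median gene). Only the DMSO libraries took it past that table's filter, and without the filter the change was -0.50 again (adjusted p = 0.0278). It had 0.311 and 0.300 TPM with Rxra OE, against 0.577 and 0.546 TPM in CTR (-0.26 ± 0.05 without the filter, adjusted p = 0.0181), or -0.48 when rescaled by the median ratio (adjusted p = 0.00961). It had 2.31 and 1.60 TPM with shE3, against 0.861 and 0.645 TPM in shCTR (0.75 ± 0.22, adjusted p = 0.0384, and 0.76 relative to the median gene). There only the shE3 libraries took it past the filter. The shE3 change did not pass with a pseudocount of 0.1 (adjusted p = 0.0522), without a filter (adjusted p = 0.192), without shE3 replicate 1 (0.57), without shCTR replicate 1 (0.83) or without shCTR replicate 2 (0.66). In the CD and Rxra OE tables the direction of Sox2 was opposite to that of the median gene. The sums of the 16 neural and glial markers, a cell type in which Sox2 is also active, were 32.7 to 33.7 TPM with CD and 35.8 to 37.7 TPM with DMSO, 53.0 to 58.6 TPM with Rxra OE and 33.9 to 38.1 TPM in CTR, and 81.0 to 84.4 TPM with shE3 and 76.2 to 84.6 TPM in shCTR. With CD 8 of these markers were tested, 3 were higher and 3 lower, and with Rxra OE 8 were tested, 4 higher and 4 lower. With shE3 7 were tested, 1 was higher and 1 lower. The part of these markers in the Sox2 differences was not tested.

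**Figure D3:**
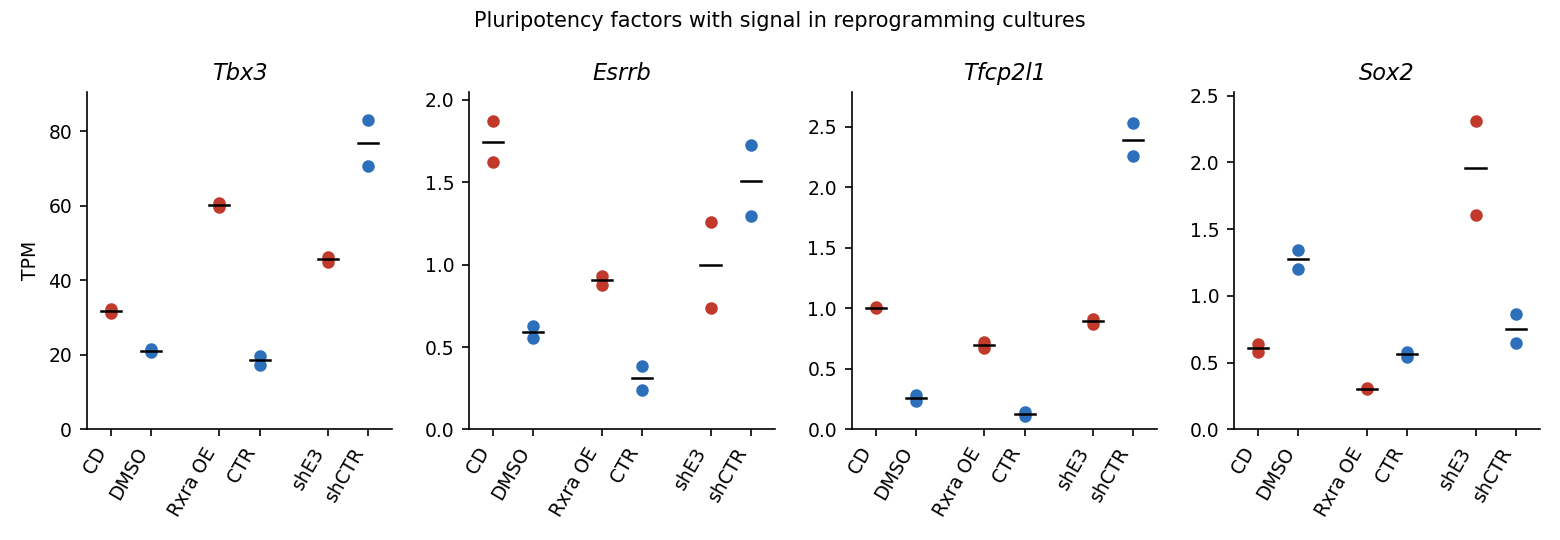
TPM of Tbx3, Esrrb, Tfcp2l1 and Sox2 in each library (points) with group means (bars) in the CD, Rxra OE and shE3 tables, linear axes from 0. Red points are CD, Rxra OE and shE3 and blue points their controls. Tbx3, Esrrb and Tfcp2l1 are above their controls with CD and Rxra OE and below with shE3, and Sox2 shows the opposite order in all 3 tables.

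Of the core factors, Pou5f1 was listed at 0 in all CD, DMSO, CTR and shCTR libraries, and had 0.0291 and 0.163 TPM with Rxra OE and 0.134 and 0.241 TPM with shE3. Nanog had at most 0.227 TPM, reached in shCTR. Zfp42, Nr0b1, Prdm14 and Foxd3 had at most 0.428 TPM. These values were below the filter, and the depth of the TPM tables is unknown.

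The wider list of 32 pluripotency genes was also counted in these cultures. Of 18 tested in the CD table, 14 were higher and 0 lower (median 1.12, against 0.18 over all genes), or 14 and 1 relative to the median gene. Of 18 tested in the Rxra OE table, 15 were higher and 0 lower (median 1.72, against 0.62), or 15 and 3. Of 17 tested in the shE3 table, 0 were higher and 12 lower (median -0.72, against -0.04), and the same counts held relative to the median gene. Beside these counts, 43.1% of all tested genes were called higher with CD, 68.6% higher with Rxra OE and 12.3% lower with shE3. Of the 32, 15 to 16 were at 1 TPM or more in DMSO libraries and 17 to 18 in CD libraries. The range was 12 to 14 in CTR and 17 to 18 with Rxra OE, and 16 to 17 in shCTR and 15 with shE3. Genes that passed the filter only through the group in which they were high had to differ. Gbx2 was at 46.1 TPM with CD and 6.71 TPM with DMSO (2.61 ± 0.07), and at 66.4 TPM with Rxra OE and 2.36 TPM in CTR (4.33 ± 0.09). Tdh, a threonine dehydrogenase of ESCs, was at 76.0 TPM with CD and 11.0 TPM with DMSO (2.68 ± 0.07), and at 5.89 TPM with shE3 and 28.9 TPM in shCTR (-2.12 ± 0.12, adjusted p = 5.09e-06 by limma).

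XEN-like markers, a state through which chemical reprogramming passes, moved in the same tables. Of 14, 13 were tested in the CD table, 11 were higher and 1 lower, with sums of 2117 to 2190 TPM with CD and 707 to 759 TPM with DMSO. With Rxra OE 14 of 14 were higher as deposited, or 11 higher and 1 lower relative to the median gene (1999 to 2113 TPM with Rxra OE and 475 to 532 TPM in CTR). With shE3 12 of 14 were lower (1154 to 1158 TPM with shE3 and 1788 to 2007 TPM in shCTR). No tested XEN-like or fibroblast marker was listed at 0 in these tables. Fibroblast markers were lower in 18 of 20 with CD and 19 of 20 with Rxra OE, and with shE3 2 were higher and 2 lower as deposited, or 9 higher and 2 lower relative to the median gene. Tbx3 itself is expressed in extraembryonic endoderm, and the part of these cells in its differences was not tested.

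Trophoblast markers, of a lineage in which Esrrb also acts, had sums of 33.7 to 36.0 TPM with CD and 10.7 to 10.8 TPM with DMSO, and of the 5 of 8 that were tested 3 were higher and 1 lower. With Rxra OE their sums were 42.5 to 43.6 TPM, against 7.19 to 7.50 TPM in CTR (5 tested, 4 higher and 0 lower, or 4 and 1 relative to the median gene). With shE3 they were 12.0 to 13.6 TPM, against 16.8 to 17.9 TPM in shCTR (5 tested, 0 higher and 1 lower). Cdx2, a trophectoderm factor, changed by 2.09 with CD, by 2.97 with Rxra OE and by -1.39 with shE3. Macrophage markers had sums of 12.0 to 12.6 TPM with CD and 10.9 to 11.3 TPM with DMSO, 12.0 to 12.4 TPM with Rxra OE and 15.2 to 16.3 TPM in CTR, and 366 to 370 TPM with shE3 and 148 to 175 TPM in shCTR. With shE3, of the 7 tested 2 were higher, the lysozyme gene Lyz2 (1.27) and the adaptor gene Tyrobp (1.44). Neural crest markers, of a lineage of Foxd3, had sums of 62.6 to 65.4 TPM with CD and 52.2 to 55.0 TPM with DMSO, 84.5 to 84.6 TPM with Rxra OE and 47.2 to 51.9 TPM in CTR, and 106 to 118 TPM with shE3 and 102 to 116 TPM in shCTR. With CD 8 of them were tested, 4 were higher and 2 lower (4 and 4 relative to the median gene). With Rxra OE 9 were tested, 6 were higher and 2 lower (3 and 4), and with shE3 8 were tested, 0 higher and 2 lower. Germ cell markers had sums of 26.2 to 27.3 TPM with CD and 11.5 to 11.9 TPM with DMSO, 26.9 to 27.0 TPM with Rxra OE and 7.86 to 8.03 TPM in CTR, and 21.4 to 22.0 TPM with shE3 and 39.4 to 45.3 TPM in shCTR. The part of these markers in the differences of the 10 genes was not tested.

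In the actinomycin D table, the 4 genes with signal at 0 h (Tbx3, Esrrb, Tfcp2l1 and Sox2) were all lower after 4 and 8 h in both arms. Values there are read counts scaled to library size (CPM), not corrected for length, so levels are not compared between genes. Whole reads could be recovered from the deposited values, and the depth was 15382821 to 24186485 reads per library.

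Tbx3 had 583 and 223 CPM at 0 h, 41.4 and 30.5 CPM at 4 h and 51.8 and 47.4 CPM at 8 h with CD. With DMSO it had 163 and 71.1 CPM at 0 h, 18.0 and 19.7 CPM at 4 h and 15.0 and 27.8 CPM at 8 h. The first 0 h library was 2.62 times the second with CD and 2.29 times with DMSO, and every later value was below both. At 0 h CD was above DMSO by 1.73 ± 0.46 (adjusted p = 0.0347), where 14.6% of 17064 genes were called and 8.22% were called higher. The median gene was at 0.19, and rescaling by the median ratio took the share of upward calls to 42.2 instead of 56.2%.

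Tfcp2l1 had 26.0 and 14.4 CPM at 0 h, 5.57 and 4.58 CPM at 4 h and 4.73 and 5.58 CPM at 8 h with CD. With DMSO it had 8.15 and 5.11 CPM at 0 h, 1.82 and 2.02 CPM at 4 h and 0.660 and 1.17 CPM at 8 h. The CD libraries were above the DMSO libraries at each time, and at 0 h by 1.45 ± 0.30 (adjusted p = 0.0162).

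Esrrb had 19.5 and 9.27 CPM at 0 h, 0.796 and 0.755 CPM at 4 h and 1.24 and 2.21 CPM at 8 h with CD. With DMSO it had 7.01 and 2.78 CPM at 0 h, 0.441 and 0.519 CPM at 4 h and 0.240 and 1.43 CPM at 8 h. The 0 h groups did not overlap, yet the difference of 1.40 ± 0.43 did not pass (adjusted p = 0.052). Sox2 had 5.42 and 1.35 CPM at 0 h, 0.348 and 0.323 CPM at 4 h and 1.24 and 0.0581 CPM at 8 h with CD. With DMSO it had 2.60 and 0.757 CPM at 0 h, 0.165 and 0.104 CPM at 4 h and 0.12 and 0.585 CPM at 8 h. Its 0 h groups overlapped (0.63 ± 0.49, adjusted p = 0.353), and the lowest of these values rests on 1 read. In the CD table Sox2 had gone the other way, lower with CD (-0.50).

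The 0 h calls depended on single libraries, on the filter and on scaling. Library 1 was above library 2 in both arms for Tbx3, Tfcp2l1, Esrrb and Sox2. Within a library number, CD was 3.58 and 3.13 times DMSO for Tbx3 and 3.19 and 2.82 times for Tfcp2l1. For Esrrb it was 2.79 and 3.34 times and for Sox2 2.09 and 1.78 times. Whether same-numbered libraries are paired was not given. With a replicate block Tfcp2l1 (adjusted p = 0.0262) and Tbx3 (adjusted p = 0.0426) passed by limma. As in the main fit, Esrrb (adjusted p = 0.0724) and Sox2 (adjusted p = 0.3) did not. Without a filter Tfcp2l1 passed (1.45, adjusted p = 0.0444) and Tbx3 did not (1.73, adjusted p = 0.088). Without CD 0 h replicate 1 neither Tfcp2l1 (1.04, adjusted p = 0.117) nor Tbx3 (1.04, adjusted p = 0.237) passed, and without DMSO 0 h replicate 2 neither did (1.16 and 1.14). Esrrb passed without CD 0 h replicate 2 (1.90, adjusted p = 0.0157) or DMSO 0 h replicate 1 (1.94, adjusted p = 0.0199). With libraries rescaled by the ERCC spike-ins, whose summed level was 1267 and 1849 CPM in CD 0 h and 1634 and 1951 CPM in DMSO 0 h, Tfcp2l1 (1.66, adjusted p = 0.0804) and Tbx3 (1.95, adjusted p = 0.104) did not pass. Of 14 XEN-like markers 5 were higher and 0 lower in CD 0 h, with sums of 13813 to 16317 CPM in CD 0 h and 9625 to 9666 CPM in DMSO 0 h, and of 20 fibroblast markers 0 were higher and 12 lower, with sums of 4814 to 4992 CPM in CD 0 h and 7021 to 7427 CPM in DMSO 0 h. Macrophage markers were lower in 4 of 9 tested (sums of 145 to 225 CPM in CD 0 h and 336 to 469 CPM in DMSO 0 h). Trophoblast markers were higher in 2 of 7 tested (75.7 to 266 CPM in CD 0 h and 28.8 to 53.8 CPM in DMSO 0 h), and neural crest markers in 3 of 8 tested (177 to 406 CPM in CD 0 h and 88.0 to 147 CPM in DMSO 0 h). Of neural and glial markers 10 were tested, 2 were higher and 1 lower (139 to 230 CPM in CD 0 h and 77.5 to 130 CPM in DMSO 0 h). The part of all these markers in the 0 h differences was not tested. Of the 32 other pluripotency genes, 21 were tested at 0 h, 13 were higher and 0 lower, with a median of 1.21, against 0.19 over all genes.

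After 8 h of actinomycin D, 12.3% of the 0 h mean of Tbx3 was left with CD and 18.3% with DMSO. Esrrb was left at 12.0% with CD and 17.1% with DMSO, Sox2 at 19.2% with CD and 21.03% with DMSO, and Tfcp2l1 at 25.5% with CD and 13.8% with DMSO. With ERCC scaling the 8 h shares for Tbx3 were 8.81% with CD and 14.7% with DMSO. The CPM shares at 4 h were below those at 8 h for Tbx3 (8.92% with CD and 16.1% with DMSO), Esrrb (5.39 and 9.81%) and Sox2 (9.93 and 8.03%). For Tfcp2l1 the 4 h shares were 25.1% with CD and 29.0% with DMSO, the other order from 8 h. CPM is scaled to the library total, so these shares are not amounts of RNA, and the rise from 4 to 8 h was not tested. All 4 were called lower at 8 h than at 0 h with CD, against 41.3% of all tested genes, and Tbx3, Esrrb and Tfcp2l1 with DMSO, against 27.2%. The changes with CD were -2.84 ± 0.46 for Tbx3, -2.44 ± 0.43 for Esrrb and -1.73 ± 0.30 for Tfcp2l1 (each adjusted p = 0.00296), beside a median gene at -0.34 (share of upward calls 24.2%, or 45.7% rescaled by the median ratio). Sox2, at -1.33 ± 0.49 (adjusted p = 0.0388), did not pass without a filter (adjusted p = 0.09), by edgeR (adjusted p = 0.0958) or DESeq2 (adjusted p = 0.096) on recovered reads, relative to the median gene (-1.09) or without CD 8 h replicate 2 (-0.79) or CD 0 h replicate 1 (-0.61). With DMSO the changes were -2.34 ± 0.46 for Tbx3 (adjusted p = 0.00808), -1.66 ± 0.43 for Esrrb (adjusted p = 0.0188) and -1.98 ± 0.30 for Tfcp2l1 (adjusted p = 0.00442), beside a median gene at -0.33 (share of upward calls 12.1%, or 56.0% rescaled). Sox2 did not pass (-0.92, adjusted p = 0.167). Tbx3 and Esrrb with DMSO did not pass without DMSO 8 h replicate 1 (-1.92 and -1.18) or DMSO 0 h replicate 1 (-1.75 and -1.12), and Esrrb did not pass without a filter (-1.66, adjusted p = 0.0627).

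Markers of other cells moved over the same 8 h. Of 17064 tested genes, 2245 were called higher with CD and 637 with DMSO, and 41.3 and 27.2% were called lower. CPM is scaled to the library total, so a higher value at 8 h is not by itself more RNA. With CD, 7 of 9 tested macrophage markers were higher at 8 h (sums of 516 to 551 CPM at 8 h and 145 to 225 CPM at 0 h), and of 20 fibroblast markers 13 were higher and 2 lower (6499 to 6594 CPM at 8 h and 4814 to 4992 CPM at 0 h). Trophoblast markers were lower in 6 of 7 tested (22.6 to 23.4 CPM at 8 h and 75.7 to 266 CPM at 0 h) and neural crest markers in 7 of 8 tested (70.9 to 73.1 CPM at 8 h and 177 to 406 CPM at 0 h). Of 10 tested neural and glial markers 1 was higher and 7 lower with CD. With DMSO, 1 of 9 tested macrophage markers was higher (493 to 631 CPM at 8 h and 336 to 469 CPM at 0 h), and of 20 fibroblast markers 8 were higher and 1 lower (8955 to 9225 CPM at 8 h and 7021 to 7427 CPM at 0 h). Trophoblast markers were lower in 3 of 7 tested with DMSO (18.8 to 29.5 CPM at 8 h and 28.8 to 53.8 CPM at 0 h). Neural crest markers were lower in 3 of 8 tested with DMSO, and of 10 tested neural and glial markers 0 were higher and 4 lower. XEN-like markers were lower in 10 of 14 with CD (12482 to 12986 CPM at 8 h and 13813 to 16317 CPM at 0 h) and in 11 of 14 with DMSO (5971 to 6863 CPM at 8 h and 9625 to 9666 CPM at 0 h). The part of these markers in the losses of the 4 genes was not tested.

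The loss over 8 h was not shown to differ between CD and DMSO for any of the 4. The difference of the log2 changes, CD minus DMSO, was -0.50 ± 0.65 for Tbx3, -0.77 ± 0.61 for Esrrb, 0.25 ± 0.43 for Tfcp2l1 and -0.42 ± 0.69 for Sox2, with adjusted p of 0.598 to 0.825 by limma. Over all 17064 genes 1 was called, or 0.00586%, while 1939 had an unadjusted p under 0.05. EdgeR called 1 gene and DESeq2 54.

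**Figure D4:**
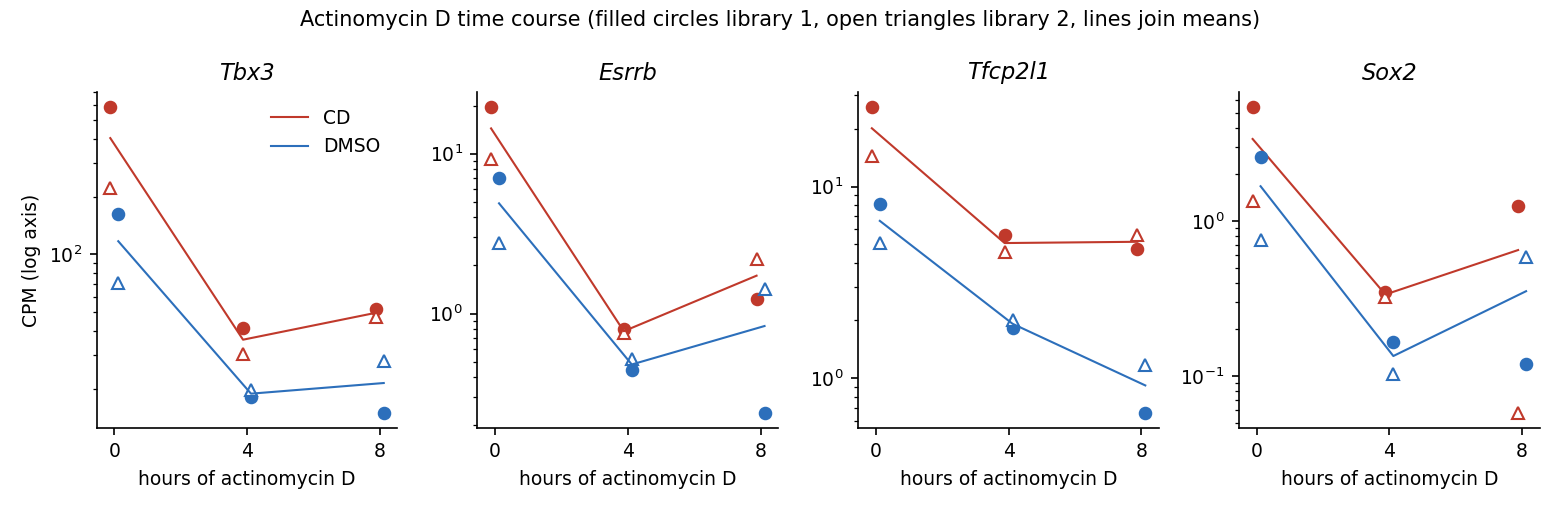
CPM (log axis) of Tbx3, Esrrb, Tfcp2l1 and Sox2 after 0, 4 and 8 h of actinomycin D in CD (red) and DMSO (blue) cultures. Circles are library 1, triangles library 2, and lines join means. The steepest part lies between 0 and 4 h, and the 0 h libraries of an arm are far apart, as for Tbx3 with 583 and 223 CPM in CD.

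The other 6 genes were at the edge of detection in the actinomycin D table, with at most 23 reads per library, reached by Foxd3 in CD 0 h. A count of 0 allows up to 3 reads, or 0.124 to 0.195 CPM depending on the library, and this covers counting error only. Foxd3 had 0.951 and 0.70 CPM in CD 0 h, against 0.882 and 0.378 CPM in DMSO 0 h, which overlap. Nanog had 6 and 5 reads in CD 0 h and 2 and 3 in DMSO 0 h, Zfp42 had 6 and 4 in CD 0 h and 2 and 1 in DMSO 0 h, and Prdm14 had 7 and 8 in CD 0 h and 3 and 0 in DMSO 0 h. They were below the filter, and in the fit without it none of the 3 passed (Nanog 0.14, adjusted p = 0.168, Zfp42 0.19, adjusted p = 0.277, and Prdm14 0.34, adjusted p = 0.135). Pou5f1 had 3 and 0 reads in CD 0 h and 4 and 2 in DMSO 0 h.

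Tbx3 was the only one of the 10 that passed the filter in all 5 tables. After subtraction of each table's mean, the genes whose log2 levels ran most like it over the 32 libraries were Nrf1 (r = 0.982), Sik1 (r = 0.980), Zfp280b (r = 0.979) and Mtcl1 (r = 0.977), of 11883 genes compared. For Esrrb, over the 28 libraries of 4 tables, these were Trim6 (r = 0.976), Tdrp (r = 0.974), Txlng (r = 0.971) and Tfap2c (r = 0.967). For Tfcp2l1, over the same 28, they were Arid3b, Mtf2 and Nfatc2ip (each r = 0.982) and Trim6 (r = 0.981), and for Sox2 Tfap2c (r = 0.967), Tdrp (r = 0.964), Rps4l (r = 0.960) and Rpa1 (r = 0.958). These correlations describe libraries that share tables, groups and the step between MEFs and stem cells. For the 6 genes with signal in the iPSC table alone, that step dominates the 8 libraries, and r was above 0.95 for 121 genes with Foxd3 and for 1003 to 1381 genes with the others, and no gene is named for them.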

How the data were processed

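RNA from 32 mouse libraries was sequenced. The authors deposited 5 gene tables of 55401 Ensembl genes, of which 55141 were named from GENCODE M21 and 260 were not. The submitters' processing notes name fastp 0.20.1, HISAT2 2.1.0, StringTie 2.0 and mm10. In 4 tables the deposited values are TPM, of unknown depth. In the actinomycin D table the deposited signal is CPM (read counts scaled to library size); whole reads were recovered for at least 99.9879% of values (tolerance 0.001).

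Each table was fitted alone with limma 3.58.1 (R 4.3.3; trend, 2-sided, Benjamini-Hochberg threshold 0.05) on log2(value + 1) for genes at 1 or more in at least 2 libraries, over 13 comparisons. Tests of recovered reads used edgeR 4.0.16 and DESeq2 1.42.0 as alternatives. The alternatives were another pseudocount, no filter, median-ratio and ERCC rescaling, no mitochondrial genes, a replicate block and leaving out each library. Crossed blocks, a fit without MEFs and, for genes below the filter with Rxra OE, median-ratio rescaling without the filter were added after seeing the data. The fits were tested on simulated data.

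Members and gene lists were chosen with earlier results of these data known. From each list, up to 3 genes with the largest called change, no overlap between groups and an average of 5 or more on the higher side were named, with markers at 0 beside them. Genes most like a member were named by Pearson r, except where over 100 genes passed r = 0.95.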

Additional observations from a re-analysis of the deposited data

Results flagged for a closer look

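Tbx3, Esrrb and Tfcp2l1 were on opposite sides of DMSO in cultures and in iPSCs, with every CD library above both DMSO libraries in the cultures and below both in the iPSCs. Tbx3 changed by 0.57 in the CD cultures, by 1.73 in the CD cultures sampled before actinomycin D and by -1.46 in CD iPSCs on the log2 scale. Esrrb was at 0.78, 1.40 and -0.53 in the same order, of which the second did not pass (adjusted p = 0.052 by limma). Tfcp2l1 was at 0.67, 1.45 and -0.50. The 3 comparisons use different libraries in tables normalised separately. The difference between them was not tested. The 3 genes were picked because their libraries lay apart in opposite directions, and how many of all genes do so was not counted. Of all tested genes, 43.1% were called higher in the CD cultures, 8.22% higher in CD 0 h and 18.5% lower in CD iPSCs.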

How the results depend on the processing

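Of the values for single genes, 299 kept direction and side of the threshold when 1 library was left out, 43 lost their call, 2 gained one and 12 changed sign or reached 0. Without mitochondrial genes all 85 were kept. A pseudocount of 0.1 ended 6 calls, no filter 8, the median ratio 2, the replicate block 2, ERCC scaling 2, edgeR 1, DESeq2 1, the fit without MEFs 2 and, with Rxra OE, the median ratio without the filter 1 of 3; the causes were not tested.

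Without a filter, 2 genes and 0 of the 10 were called with shE3, 1087 genes and 1 member in CD 0 h against DMSO 0 h, and 2793 genes in DMSO 8 h against 0 h. Median-ratio scaling called 4410 genes with shE3. ERCC scaling called 288 genes and 0 members at 0 h, 3027 genes in DMSO 8 h and 0 genes for the difference in loss. DESeq2 called 4192 genes at 0 h and 54 for the difference in loss, where a pseudocount of 0.1 called 3 and leaving out mitochondrial genes 0. A pseudocount of 0.1 called 1 member in DMSO iPSCs against R1.

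Leaving out 1 library gave 1695 to 2633 genes and 1 to 3 members with shE3, 234 to 6233 genes and 0 to 3 members at 0 h, 4785 to 9979 genes in CD 8 h, 305 to 6569 genes and 1 to 3 members in DMSO 8 h, and 1 to 440 genes for the difference in loss. It gave 4021 to 6511 genes and 6 to 8 members in CD iPSCs against DMSO iPSCs, 1505 to 3788 genes and 7 to 9 members in CD iPSCs against R1, and 922 to 1244 genes and 0 members in DMSO iPSCs against R1.

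Sign changes, or values of 0, came only in differences that had not passed. Without 1 library, Sox2 at 0 h ran from -0.10 (without CD 0 h replicate 1) to 1.35. The difference in loss ran from -1.14 to 0.31 for Sox2 (0.12 without CD 8 h replicate 2, 0.31 without CD 0 h replicate 1 and 0.10 without DMSO 0 h replicate 2), from -1.19 to 0.20 for Tbx3 (0.20 without CD 0 h replicate 1 and 0.10 without DMSO 0 h replicate 2) and from -0.16 to 0.65 for Tfcp2l1 (-0.16 without CD 0 h replicate 2 and -0.04 without DMSO 0 h replicate 1). Pou5f1 in CD against DMSO iPSCs ran from -0.25 to 0.17 (0.17 without CD iPSC replicate 2 and 0.05 without DMSO iPSC replicate 2), and against R1 from 0.00 (without CD iPSC replicate 1) to 0.42. Foxd3 in CD iPSCs against MEFs ran from -0.54 to 0.05 (without MEF replicate 1).

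Whether same-numbered libraries are paired was not given. Their deviations correlated at -0.1065 in the CD table, -0.1374 in the Rxra OE table and 0.0752 in the shE3 table. The range was -0.1251 to 0.059 in the iPSC table and -0.6948 to 0.5449 in the actinomycin D table. There the highest was between CD 0 h and DMSO 0 h, and the lowest between CD 0 h and DMSO 8 h. With the replicate block 8 members were called in CD iPSCs against DMSO iPSCs (Sox2 -0.42, adjusted p = 0.0579) and 3 in DMSO iPSCs against R1 (Nr0b1 0.41, adjusted p = 0.0763), and no other member's call changed. Crossed pairings, chosen after seeing the data, called 7982 genes with CD and 11249 with Rxra OE.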
